A study of Mus musculus with 17 samples.

Results

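The enzymes that write, copy and remove DNA methylation, together with 3 core parts of the Polycomb repressive complex 2 (PRC2), were followed in mouse neural retinal progenitor cells (mNRPCs). The 10 genes were Dnmt1, Dnmt3a, Dnmt3b, Uhrf1, Tet1, Tet2, Tet3, Ezh1, Ezh2 and Suz12, taken by their symbols from 18836 genes listed in at least 1 library. All 10 were listed in each of the 17 libraries, although Dnmt3b and Tet1 were close to the lower end of what was listed.

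The cells came from the neural retina of adult C57BL/6 mice and were sequenced as bulk poly-A RNA. BM was basic medium (DMEM/F12 with the N2 and B27 supplements), B was BM with bFGF (basic fibroblast growth factor), C was BM with CHIR99021 (an inhibitor of the kinase GSK-3), and BC was BM with both. There was 1 library of each on days 1, 3, 5 and 7, and 1 day 0 control, with no replicate of a condition. By the methods, the cells had been established in medium that held bFGF and CHIR99021, and the sources describe day 0 both as cells in BM and as the state before treatment.

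DNA methylation in mammals is set by DNMT3A and DNMT3B, which add methyl groups to unmethylated CpG sites, and is copied to the new strand at each division by DNMT1, which UHRF1 guides to newly replicated DNA. The TET enzymes oxidise the methyl group, which leads to its removal. PRC2 places the repressive mark H3K27me3 through EZH2 or EZH1, with SUZ12 as a scaffold, and EZH2 is known from dividing progenitors while EZH1 is known from cells that divide little.

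Promoter windows are shown for the 4 members that carry a motif known from cell-cycle promoters and for Ezh1. RefSeq windows of 300 bases (250 before and 50 from the first transcribed base, GRCm38.p6) were found for all 10 genes, with 15 start sites in all, and were searched on both strands for TTTCGCGC, TTTGGCGC, TTTCCCGC and TTTGCCGC, the forms of the motif known for E2F factors, of which no pair overlaps in the windows printed. At least 1 match was present in 4 of the 10 genes, against 2.6% of 27025 genes and 2.26% of 32851 promoters. In the sequences that follow, written 5′ to 3′ along the gene, capitals mark the matches.
Dnmt1, chr9:20952574-20952873, minus strand, 2 matches: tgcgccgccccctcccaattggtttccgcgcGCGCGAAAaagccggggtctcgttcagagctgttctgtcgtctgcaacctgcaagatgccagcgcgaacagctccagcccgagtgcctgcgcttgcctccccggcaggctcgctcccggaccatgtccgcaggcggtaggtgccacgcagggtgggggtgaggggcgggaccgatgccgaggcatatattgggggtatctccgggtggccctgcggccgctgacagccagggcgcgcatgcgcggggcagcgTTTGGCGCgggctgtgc
Uhrf1, chr17:56304063-56304362, plus strand, 1 match: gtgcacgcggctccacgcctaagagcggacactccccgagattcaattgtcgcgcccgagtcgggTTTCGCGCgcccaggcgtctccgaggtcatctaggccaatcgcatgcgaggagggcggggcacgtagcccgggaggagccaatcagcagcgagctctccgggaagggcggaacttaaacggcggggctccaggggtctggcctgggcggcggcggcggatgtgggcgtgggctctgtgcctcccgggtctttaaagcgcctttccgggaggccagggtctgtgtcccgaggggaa
Ezh2, chr6:47594981-47595280, minus strand, 1 match: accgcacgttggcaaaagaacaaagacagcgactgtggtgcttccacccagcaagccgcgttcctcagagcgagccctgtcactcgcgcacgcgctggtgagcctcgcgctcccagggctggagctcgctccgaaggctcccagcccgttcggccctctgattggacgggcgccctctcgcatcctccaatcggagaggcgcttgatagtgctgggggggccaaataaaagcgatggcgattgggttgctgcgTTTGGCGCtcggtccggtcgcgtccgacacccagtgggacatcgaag
Suz12, chr11:79992856-79993155, plus strand, 1 match: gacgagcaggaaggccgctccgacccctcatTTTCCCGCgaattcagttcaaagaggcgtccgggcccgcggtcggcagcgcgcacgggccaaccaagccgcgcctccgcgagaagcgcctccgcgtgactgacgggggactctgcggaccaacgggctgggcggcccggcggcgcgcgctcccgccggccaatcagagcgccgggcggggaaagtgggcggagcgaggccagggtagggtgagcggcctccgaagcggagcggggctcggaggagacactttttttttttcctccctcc
Ezh1, chr11:101226414-101226713, minus strand, no match, shown beside its paralog Ezh2: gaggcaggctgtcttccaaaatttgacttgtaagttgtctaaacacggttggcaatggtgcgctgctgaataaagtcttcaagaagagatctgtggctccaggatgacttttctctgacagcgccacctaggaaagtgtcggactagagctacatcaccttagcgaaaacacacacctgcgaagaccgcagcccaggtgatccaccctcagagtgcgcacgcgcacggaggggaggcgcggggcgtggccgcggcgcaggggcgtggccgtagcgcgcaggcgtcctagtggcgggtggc
The same letters were found in 7 of 16 genes of a reference list for S phase and mitosis, in 1 of 9 other PRC2 genes and in 0 of 18 PRC1 genes. A match describes the letters only, and factor binding was not measured.

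**Figure D1:**
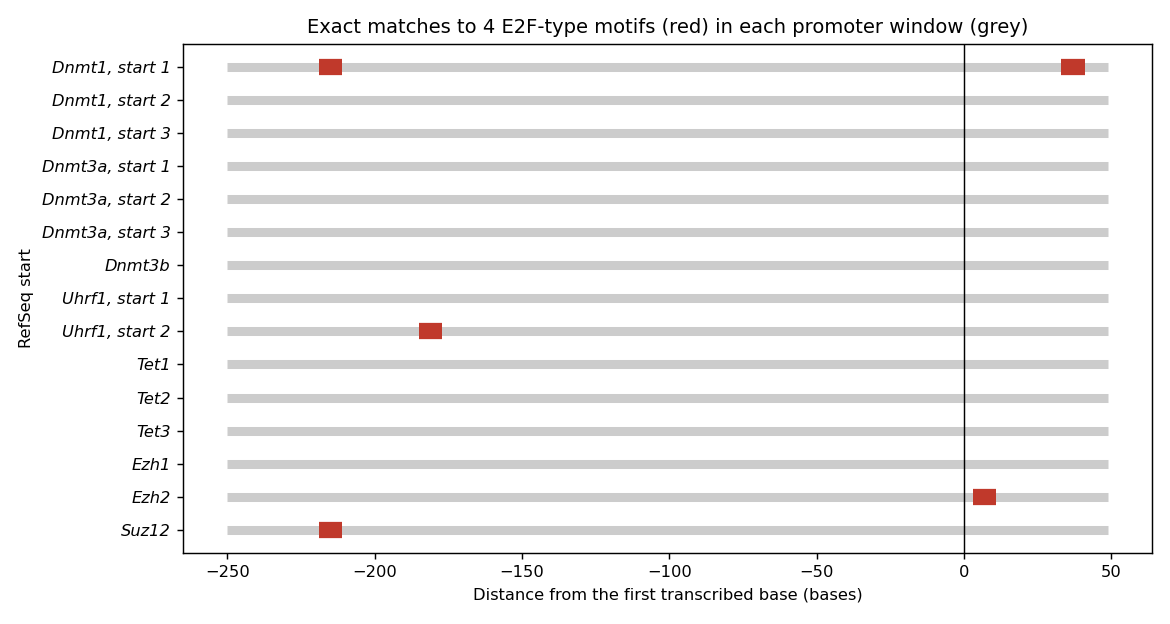
Position of each motif match (red) in the promoter windows (grey) of the 10 genes, with the distance from the first transcribed base in bases on the x axis and 1 row per RefSeq start site. Matches are present in 1 window each of Dnmt1, Uhrf1, Ezh2 and Suz12, and Dnmt1 has 2.

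The depth was even, with totals of 17571973 to 19428744 expected counts per library. The labelled cell type was checked by its markers. Pax6, Six3, Nes, Sox2 and Hes1 were expressed, but Rax, a defining gene of retinal progenitors, reached at most 0.07 FPKM (sequenced fragments relative to transcript length and library total), photoreceptor markers summed to at most 0.9 FPKM, and markers of retinal pigment epithelium, microglia and endothelium each summed to at most 2.47. The 8 progenitor markers summed to 109.2 FPKM on day 0, 149.5 to 403.9 without bFGF and 96.13 to 206.6 with it, and 4 of the 5 tested fell with bFGF, where 41.3% of all genes tested fell. The summed FPKM of 4 fibroblast and pericyte markers ran from 14.86 to 157.9 without bFGF and from 6.03 to 34.29 with bFGF, with Lum near 0, and the part of either list in the results below was not tested. In bulk RNA, fewer cells of a type and less RNA per cell cannot be told apart.

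**Figure D2:**
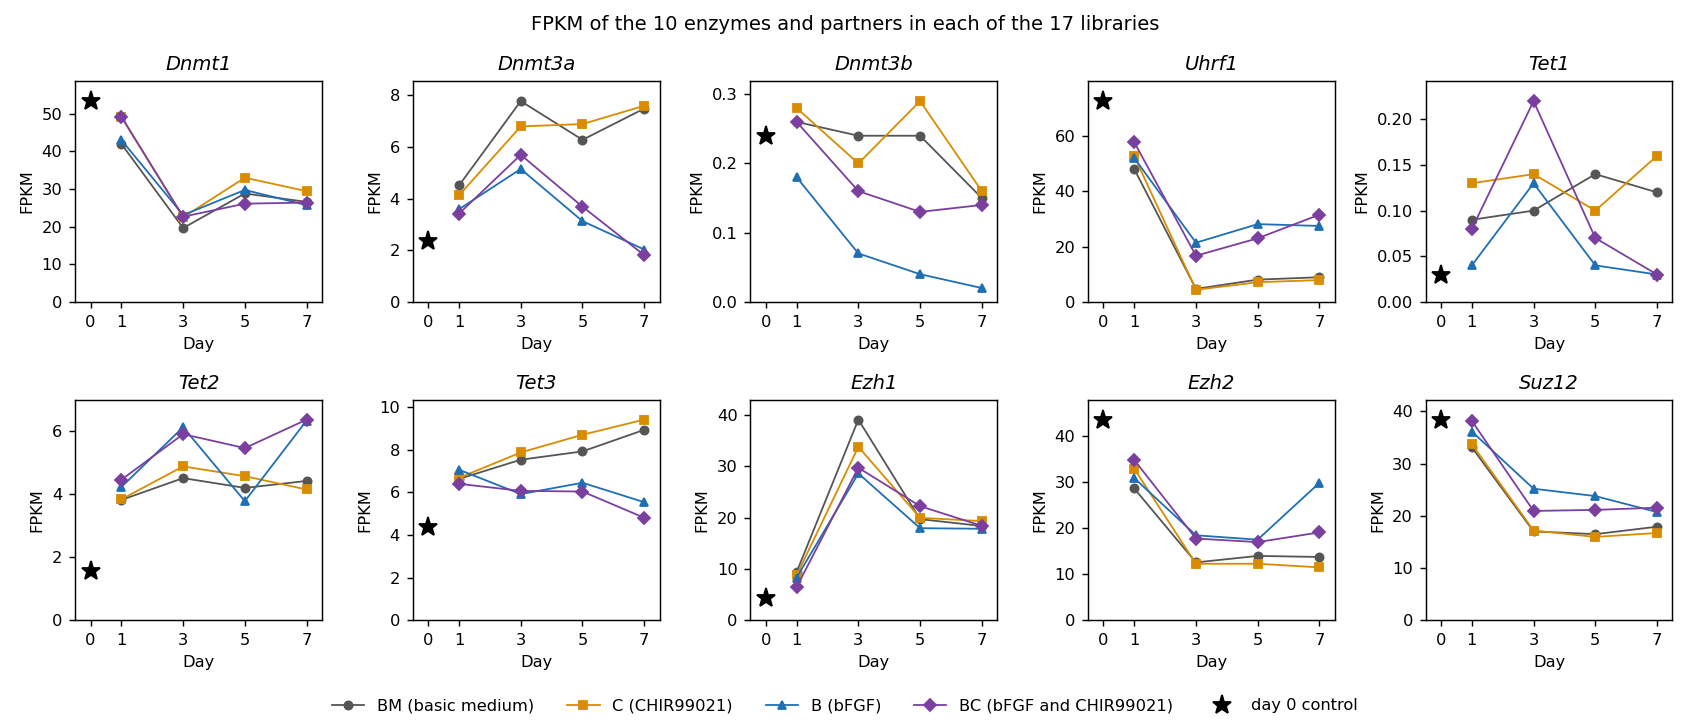
FPKM (y axis, linear, from 0) of the 10 genes by day (x axis), 1 point per library, with lines joining the libraries of a treatment and a star for the day 0 control. From day 3 to day 7 the B and BC libraries of Uhrf1, Ezh2 and Suz12 sit above those of BM and C, and those of Dnmt3a and Tet3 sit below. The FPKM are without further scaling, and the order for Tet3 did not hold on each day after quantile normalization.

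Uhrf1, the factor that brings DNMT1 to newly copied DNA, had the widest range of the 8 genes above 1 FPKM, from 4.39 to 72.71 FPKM. On day 0 it was at 72.71 FPKM, and on day 1 it was at 48.11 and 52.77 (BM, C) and 52.12 and 57.86 (B, BC). Its day 3 values were 4.72 and 4.39 (BM, C) and 21.43 and 16.71 (B, BC). The libraries were alike on day 1 and fell apart by day 3 into a low pair without bFGF and a higher pair with it. On day 5 the values were 8.06 and 7.12 (BM, C) and 28.16 and 23.03 (B, BC), and on day 7 they were 8.93, 7.90, 27.50 and 31.58 in the same order. The groups with and without bFGF did not overlap on days 3, 5 or 7, and no library returned to the day 0 level. How many of all genes did not overlap was not counted, for Uhrf1 or for the members below.

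Dnmt1, which copies methylation at replication, moved with the day far more than with bFGF. It was at 53.31 FPKM on day 0 and on day 1 at 41.95 and 49.15 (BM, C) and 42.97 and 49.14 (B, BC). On day 3 it was at 19.61, 22.47, 23.06 and 22.62 FPKM in BM, C, B and BC. These day 3 values were the 4 lowest of the 17 libraries, with and without bFGF alike. On day 5 it was at 28.78, 32.98, 29.72 and 26.08 FPKM, and on day 7 at 26.55, 29.39, 25.70 and 26.37, in the same order. The FPKM ratio of Uhrf1 to Dnmt1 was 1.36 on day 0 and 1.07 to 1.21 on day 1. On day 7 it was 0.34 and 0.27 (BM, C) against 1.07 and 1.20 (B, BC).

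Dnmt3a, which sets new methylation, ran the other way. It was at 2.37 FPKM on day 0 and on day 1 at 4.51 and 4.13 (BM, C) and 3.59 and 3.42 (B, BC). By day 3 it was at 7.78, 6.80, 5.15 and 5.70 FPKM in BM, C, B and BC. Without bFGF it then stayed high, at 6.28 and 6.89 on day 5 and 7.49 and 7.60 on day 7 in BM and C. With bFGF it came down to 3.13 and 3.69 on day 5 and 2.03 and 1.81 on day 7 in B and BC. The 2 groups did not overlap on any of the 4 days, and on day 7 the bFGF libraries were just below day 0. On day 7, limma on FPKM without further scaling called 58.5% of all genes tested lower with bFGF and 22.1% higher. Dnmt3b, the paralog of Dnmt3a, was at 0.02 to 0.29 FPKM with 1 to 21 counts a library, too few to describe in single libraries.

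Tet3 and Tet2, the oxidising enzymes that were expressed, were lowest on day 0, at 4.38 and 1.57 FPKM. Tet3 on day 7 was at 8.93 and 9.41 (BM, C) against 5.54 and 4.81 (B, BC). Over days 3 to 7 Tet3 was at 7.53 to 9.41 FPKM without bFGF and at 4.81 to 6.45 with it, with no overlap. These values had no further scaling. The FPKM of the median gene was also lower with bFGF, by a log2 difference of -0.41 on day 5 and -0.48 on day 7. After quantile normalization the log2 difference of Tet3 was -0.21 on day 3, 0.22 on day 5 and -0.02 on day 7. Tet2 on day 7 was at 4.41 and 4.14 (BM, C) against 6.32 and 6.35 (B, BC), but on day 5 B was the lowest of the 4 at 3.77. Tet1 stayed at 0.03 to 0.22 FPKM.

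Ezh2, the PRC2 catalytic subunit of dividing cells, was at 43.47 FPKM on day 0 and on day 1 at 28.56 and 32.83 (BM, C) and 30.82 and 34.72 (B, BC). On day 3 it was at 12.55, 12.26, 18.42 and 17.72, and on day 5 at 13.96, 12.26, 17.48 and 16.95, in the same order. On day 7 it was at 13.73 and 11.48 (BM, C) and 29.79 and 19.05 (B, BC). All libraries were below day 0, those with bFGF were the higher pair from day 3 on, and B on day 7 stood above BC.

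Ezh1, the alternative catalytic subunit, was at 4.42 FPKM on day 0 and on day 1 at 9.41 and 8.79 (BM, C) and 8.34 and 6.49 (B, BC). Day 3 values were 39.11, 33.81, 28.62 and 29.74, which made it the member with the highest FPKM in each of the 4 libraries of that day. On day 5 it was at 19.72, 19.98, 17.96 and 22.25, and on day 7 at 18.39, 19.34, 17.85 and 18.42. Ezh1 thus peaked on day 3 in each medium, and its values with and without bFGF overlapped on days 5 and 7. The FPKM ratio of Ezh1 to Ezh2 was 0.10 on day 0 and 0.19 to 0.33 on day 1. On day 3 it was 3.12 and 2.76 (BM, C) against 1.55 and 1.68 (B, BC), and on day 7 it was 1.34, 1.69, 0.60 and 0.97 in BM, C, B and BC. The sum of Ezh1 and Ezh2 moved less, from 30.82 to 51.66 FPKM.

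**Figure D3:**
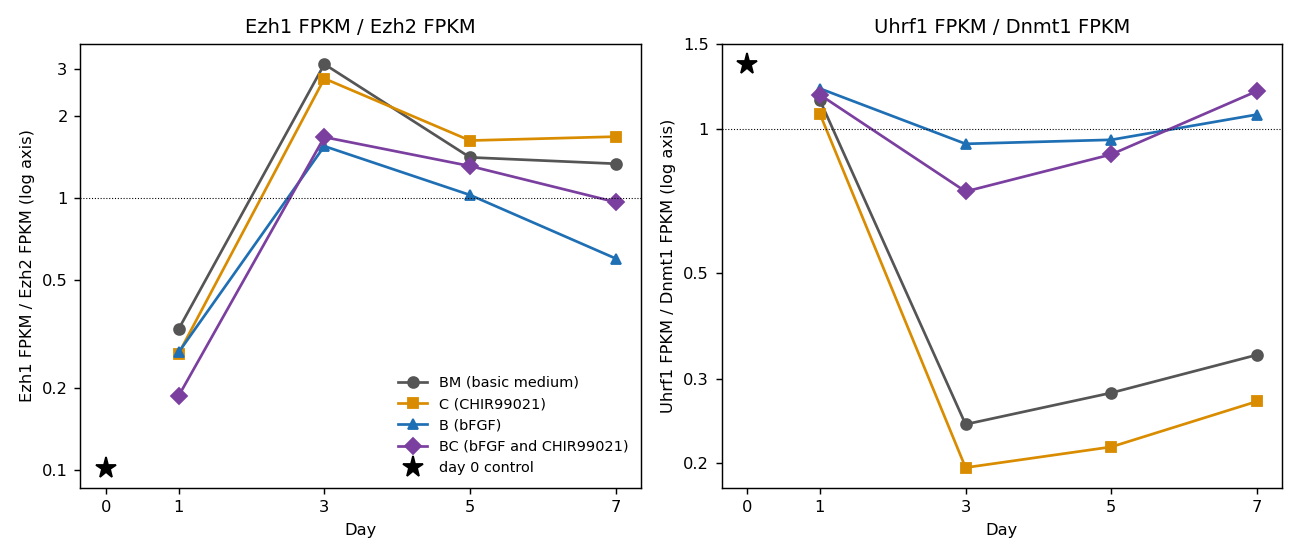
FPKM ratios of Ezh1 to Ezh2 (left) and Uhrf1 to Dnmt1 (right) on log axes by day, 1 point per library, with a dotted line at 1. Ezh1 passes Ezh2 on day 3 in each medium, and Uhrf1 to Dnmt1 on day 7 is 0.27 to 0.34 without bFGF and 1.07 to 1.20 with it.

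Suz12, the scaffold of PRC2, was at 38.41 FPKM on day 0 and on day 1 at 33.10 and 33.71 (BM, C) and 36.12 and 38.15 (B, BC). On day 3 it was at 17.02, 17.19, 25.19 and 20.94, on day 5 at 16.50, 15.97, 23.78 and 21.14, and on day 7 at 17.92, 16.72, 20.72 and 21.56, in the same order. Like Ezh2, it was below day 0 in all 16 cultured libraries and higher with bFGF from day 3 on, over a narrower range.

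The bFGF effect was tested with edgeR's quasi-likelihood test on TMM-scaled counts, over 11272 genes with a mean of at least 1 FPKM, with Benjamini-Hochberg adjustment and a threshold of 0.05. The 2 libraries with bFGF of each day were compared with the 2 without it, and 8 of the 10 members passed the filter. The spread in this test is the difference between the libraries with and without CHIR99021 beyond a common shift, in which an effect of CHIR99021 and differences between single cultures cannot be told apart, and the p-values are not those of replicate cultures. Unscaled FPKM of the median gene was lower with bFGF by a log2 difference of -0.41 on day 5 and -0.48 on day 7, and the log2 fold changes are relative to that shift.

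Averaged over the 4 days, Uhrf1 rose most with bFGF, by a log2 fold change of 1.73 (SE 0.0748, adjusted p = 7.98e-10). Ezh2 rose by 0.77 (SE 0.0761, adjusted p = 9.49e-07), Suz12 by 0.62 (SE 0.0509, adjusted p = 1.68e-07) and Tet2 by 0.59 (SE 0.0616, adjusted p = 1.73e-06). In FPKM, Uhrf1, Ezh2 and Suz12 were higher with bFGF in 8 of 8 pairs of libraries, and Tet2 in 7 of 8. Dnmt3a fell by 0.62 (SE 0.0535, adjusted p = 2.64e-07), lower in 8 of 8 pairs. Dnmt1 rose by 0.26 (adjusted p = 0.000557), a direction that turned to -0.03 in unscaled FPKM. Ezh1 (0.13, adjusted p = 0.0843) and Tet3 (-0.10, adjusted p = 0.0523) did not pass. In unscaled FPKM with limma both were called lower, Ezh1 at -0.16 (adjusted p = 0.0316) and Tet3 at -0.35 (adjusted p = 1.93e-05), and after quantile normalization Tet3 was at 0.02. The rises for the mean were smaller in unscaled FPKM, at 1.32 for Uhrf1, 0.46 for Ezh2, 0.32 for Suz12 and 0.24 for Tet2, and the fall of Dnmt3a was smaller after quantile normalization (-0.30). In all, 6 of 8 members passed, against 81.7% of all genes tested (40.5% higher and 41.3% lower), a share near that background. With 1 library left out, Tet3 moved past the threshold as a fall in 6 of 16 fits, at -0.14 to -0.12. These were without B of day 1, BM of day 3, or BM or B of days 5 and 7. Ezh1 moved past it as a rise in 2, at 0.16 without BC of day 1 and 0.17 without B of day 5. Without all libraries of day 1, Ezh1 was called higher (0.23, adjusted p = 0.00608) and Tet3 lower (-0.17, adjusted p = 0.0162). The direction of Ezh1 thus differed from that in unscaled FPKM.

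By day, on day 1, 0 of 8 members passed in edgeR (10.7% of all genes did), with log2 fold changes of -0.22 to 0.26. At an unadjusted p under 0.05, 1 member passed in edgeR (Suz12), 1 in DESeq2 and 2 in limma on log2(FPKM + 1), while no tool called any after adjustment. On day 3, Uhrf1 (2.15), Ezh2 (0.64), Suz12 (0.52) and Tet2 (0.46) rose, and Dnmt3a (-0.33) and Tet3 (-0.26) fell, against 50.4% of all genes (25.4% higher and 25% lower). The Dnmt3a call was lost without the BM library of day 3 (adjusted p = 0.213) or the B library (adjusted p = 0.146), the Tet2 call without BM (adjusted p = 0.0535) or B (adjusted p = 0.0699), and the Tet3 call without any 1 of the 4 (adjusted p of 0.0667 to 0.191).

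On day 5, 6 members rose and Dnmt3a fell by 0.50 (adjusted p = 0.000889), with 75.8% of all genes past the threshold (37.2% higher and 38.6% lower). Uhrf1 (2.20), Suz12 (0.91) and Ezh2 (0.82) led, followed by Tet2 (0.51). Dnmt1 (0.31) and Ezh1 (0.46) passed on the scaled counts but were at -0.14 and 0.01 in unscaled FPKM, where Tet2 was at 0.05 and did not pass. Dnmt1 also did not pass with limma after quantile normalization (0.08, adjusted p = 0.47) or in edgeR with a minimum FPKM of 5 (0.19, adjusted p = 0.118). Tet3 (0.04, adjusted p = 0.703) did not pass, was called lower in unscaled FPKM (-0.36, adjusted p = 0.00389) and was called higher after quantile normalization (0.22, adjusted p = 0.0452). The Dnmt1 call was lost without BM (adjusted p = 0.161) or B (adjusted p = 0.306) of day 5, the Ezh1 call without BC (adjusted p = 0.0845), and the Dnmt3a call after quantile normalization (-0.08).

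On day 7 all 8 passed, against 78.4% of all genes (38.8% higher and 39.6% lower). Uhrf1 rose by 2.37 (SE 0.152, adjusted p = 3.93e-08), Ezh2 by 1.45 (SE 0.154, adjusted p = 2.65e-06), Tet2 by 1.11 (SE 0.123, adjusted p = 3.87e-06) and Suz12 by 0.82 (SE 0.103, adjusted p = 1.07e-05). Dnmt3a fell by 1.43 (SE 0.110, adjusted p = 1.69e-07). Dnmt1 (0.44) and Ezh1 (0.48) were higher on the scaled counts but at -0.10 and -0.05 in unscaled FPKM. With limma after quantile normalization Dnmt1 was at 0.19 and did not pass (adjusted p = 0.101). Tet3 fell by 0.28 (adjusted p = 0.0123), a call lost without BC (adjusted p = 0.103) or C (adjusted p = 0.0779) of day 7, and after quantile normalization (-0.02), while it was at -0.72 (adjusted p = 1.57e-05) in unscaled FPKM. There Ezh2 was at 0.87, Tet2 at 0.48 and Suz12 at 0.27, and Dnmt3a was at -0.75 after quantile normalization.

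**Figure D4:**
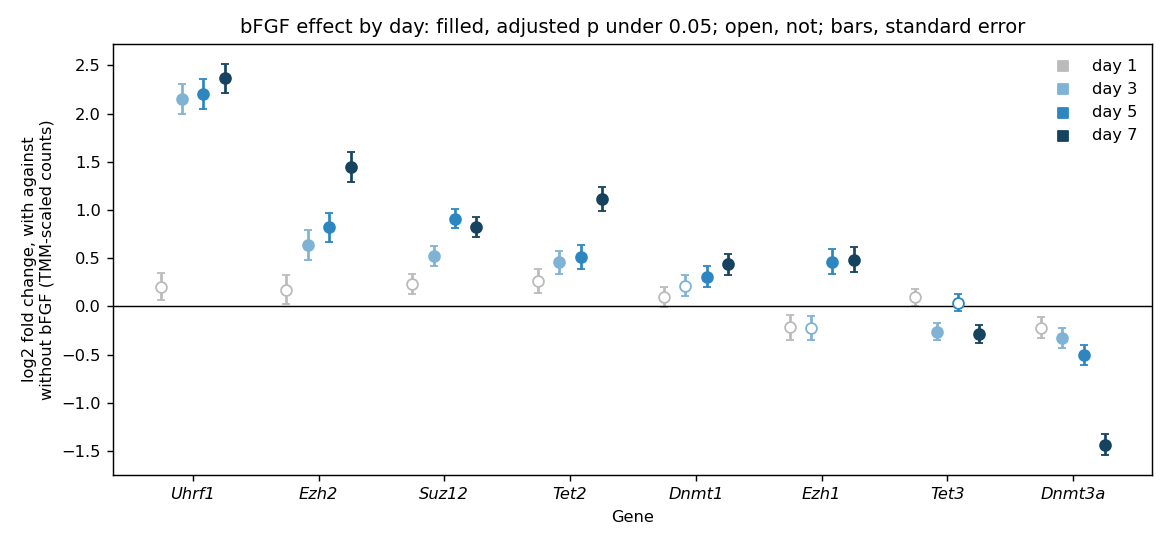
Log2 fold change with against without bFGF (y axis, TMM-scaled counts) for the 8 tested members (x axis) on each day, with the standard error as bars, filled where the adjusted p was under 0.05. On day 1 no point is filled, and on day 7 Uhrf1 stands at 2.37 and Dnmt3a at -1.43.

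The bFGF effect itself differed between days in 7 of the 8 members (F test with edgeR, 76.3% of all genes). The adjusted p was lowest for Uhrf1 (5.84e-06) and Dnmt3a (7.78e-05), and Dnmt1 did not pass (0.227). In unscaled FPKM with limma 4 members passed, without Ezh1 (adjusted p = 0.249), Tet2 (adjusted p = 0.126) and Suz12 (adjusted p = 0.17), and after quantile normalization Tet3 was lost (adjusted p = 0.0504). The effect on day 7 exceeded that on day 1 by 2.16 for Uhrf1, 1.27 for Ezh2, 0.85 for Tet2, 0.70 for Ezh1 and 0.59 for Suz12 on the log2 scale, and was lower by -1.21 for Dnmt3a and -0.38 for Tet3, so that 7 of 8 passed against 65.4% of all genes (31.3% higher and 34.1% lower). In unscaled FPKM with limma, 2 members stayed higher in this contrast in place of 5, with Tet2, Ezh1 and Suz12 no longer past the threshold, and Tet3 was at -0.73 (adjusted p = 0.000398). The Tet3 call in this contrast was lost in 5 fits, without BM, B or C of day 1 or BC or C of day 7 (adjusted p of 0.0583 to 0.11).

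From day 1 to day 3 without bFGF, Uhrf1 fell by 3.46 (SE 0.160, adjusted p = 2.26e-08), Ezh2 fell by 1.29, Dnmt1 fell by 1.09 and Suz12 fell by 0.95 on the log2 scale, and Ezh1 rose by 2.02 (SE 0.132, adjusted p = 1.08e-07) and Dnmt3a by 0.78. Tet2 rose by 0.31 (adjusted p = 0.0434), a call that DESeq2 did not make (adjusted p = 0.064) and that was lost in 13 of the 16 fits with 1 library left out, all but those without BC of day 3 or B or BC of day 5 (adjusted p of 0.0522 to 0.27). In all, 7 of 8 members passed, against 67.3% of all genes (35.4% higher and 32% lower). With bFGF, Uhrf1 fell by 1.51 (SE 0.144, adjusted p = 2.68e-06), Dnmt1 fell by 0.98, Ezh2 fell by 0.83 and Suz12 fell by 0.66, while Ezh1 rose by 2.01 (SE 0.133, adjusted p = 1.79e-07), Dnmt3a by 0.67 and Tet2 by 0.50. Again 7 of 8 passed, against 65.3% of all genes (32.4% higher and 32.9% lower).

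From day 3 to day 7 without bFGF, Uhrf1 rose by 0.83 (adjusted p = 0.00437), Dnmt1 by 0.36 (adjusted p = 0.0355) and Ezh1 fell by 0.99 (adjusted p = 0.000479), so 3 of 8 passed against 18.4% of all genes (9.15% higher and 9.25% lower). The Dnmt1 call was lost without BM (adjusted p = 0.234) or C (adjusted p = 0.0853) of day 3, and without BM (adjusted p = 0.119) or C (adjusted p = 0.176) of day 7. With bFGF, Uhrf1 rose by 1.04, Ezh2 by 0.79, Dnmt1 by 0.58 and Tet2 by 0.48, and Dnmt3a fell by 1.09 (SE 0.111, adjusted p = 5.05e-06). In unscaled FPKM Dnmt1 (0.18, adjusted p = 0.127) and Tet2 (0.07, adjusted p = 0.625) did not pass. Ezh1 (-0.28, adjusted p = 0.0682) did not pass on the scaled counts and was called lower in unscaled FPKM (-0.66, adjusted p = 0.000463), after quantile normalization (-0.42, adjusted p = 0.01), with a minimum FPKM of 5 (-0.39, adjusted p = 0.0173) and without B or BC of day 1 or day 5 (adjusted p of 0.0305 to 0.0462). Suz12 rose by 0.28 (adjusted p = 0.029) on the scaled counts and was at -0.11 in unscaled FPKM, and its call was lost without BC of day 3 (adjusted p = 0.276) or of day 7 (adjusted p = 0.213), and without BM or C of day 5 or of day 7 (adjusted p of 0.0512 to 0.0517). With bFGF 6 of 8 passed, against 66.3% of all genes (32.7% higher and 33.6% lower).

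For CHIR99021, 0 of the 8 members passed in edgeR, against 19.5% of all genes, with log2 fold changes from -0.10 for Ezh2 to 0.11 for Dnmt1, 95% intervals within -0.26 to 0.23, and 0 members at an unadjusted p under 0.05. DESeq2 and limma called 0 after adjustment, and limma on quantile-normalized values had 1 (Dnmt1) unadjusted. Without B or BC of day 5, Dnmt1 passed at 0.15 (adjusted p = 0.0426 and 0.0425). A difference of the CHIR99021 effect with and without bFGF was called by edgeR in 0 of the 8 members (0.692% of all genes), with 0 at an unadjusted p under 0.05 in edgeR, DESeq2 and limma, and edgeR's 95% intervals lay within -0.41 to 0.36.

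Other genes of these systems gave the setting, beside 40.5% of all genes higher and 41.3% lower for the mean bFGF effect (25% and 58.7% in unscaled FPKM). Of 9 other PRC2 genes tested for it, 5 rose and 2 fell (3 and 5 in unscaled FPKM), with Rbbp7, a histone-binding subunit, up by 0.49 and the accessory subunits Jarid2 (-0.65) and Aebp2 (-0.29) down. Of 23 PRC1 genes, 8 rose and 11 fell (5 and 15 in unscaled FPKM), with Yaf2 up by 0.60 and Bcor (-0.76), Bmi1 (-0.63) and Cbx6 (-0.59) down. Of 9 genes listed as opposing Polycomb, not all of them enzymes, 1 rose and 6 fell (0 and 8 in unscaled FPKM). Smarca4 was at -0.37 and Asxl1 at -0.19, and the median of the 9 was -0.63 on day 7.

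Among 9 genes listed as readers of methylated CpG, whose binding was not measured, 4 rose and 4 fell (3 and 6 in unscaled FPKM). Uhrf2, the paralog of Uhrf1, rose by 1.35, and on day 7 it was at 20.88 and 19.06 FPKM (BM, C) and 63.65 and 48.68 (B, BC). Zbtb4 (-0.92) and Mbd1 (-0.71) fell. Of 11 partners of methylation and demethylation, 5 rose and 4 fell (3 and 6 in unscaled FPKM), among them Hells, a remodeller needed for methylation, up by 0.66. These 5 lists had medians of -0.19 to 0.17, against -0.00334 over all genes tested and 0.43 over the members. In unscaled FPKM the members' median was 0.11, against -0.25 over all genes tested. After quantile normalization the members' median was 0.32, against -0.00294 over all genes tested. The median of the other PRC2 genes (0.17) was at -0.12 in unscaled FPKM, and that of the readers (0.05) at -0.21.

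In the S-phase and mitosis reference list, 20 of 20 genes were higher with bFGF, with a median of 1.23 (19 higher, 1 lower and a median of 0.82 in unscaled FPKM). The size differed within the list, in unscaled FPKM from 1.96 for Aurkb to 0.24 for Mcm7 and -0.11 for Tyms. The list median fell by 3.05 from day 1 to day 3 without bFGF and fell by 1.32 with bFGF, while Uhrf1 fell by 3.46 and fell by 1.51. The changes of other members were smaller falls, at -1.29 and -0.83 for Ezh2, -1.09 and -0.98 for Dnmt1, and -0.95 and -0.66 for Suz12. Ezh1 (2.02 and 2.01), Dnmt3a (0.78 and 0.67) and Tet2 (0.31 and 0.50) rose, and Tet3 (0.21 and -0.14) did not pass. On day 7, Cdk1, the kinase that starts mitosis, was at 8.53 and 7.61 FPKM (BM, C) and 43.06 and 48.37 (B, BC), higher with bFGF as Uhrf1 was. The part of cell division in the members' values was not tested.

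**Figure D5:**
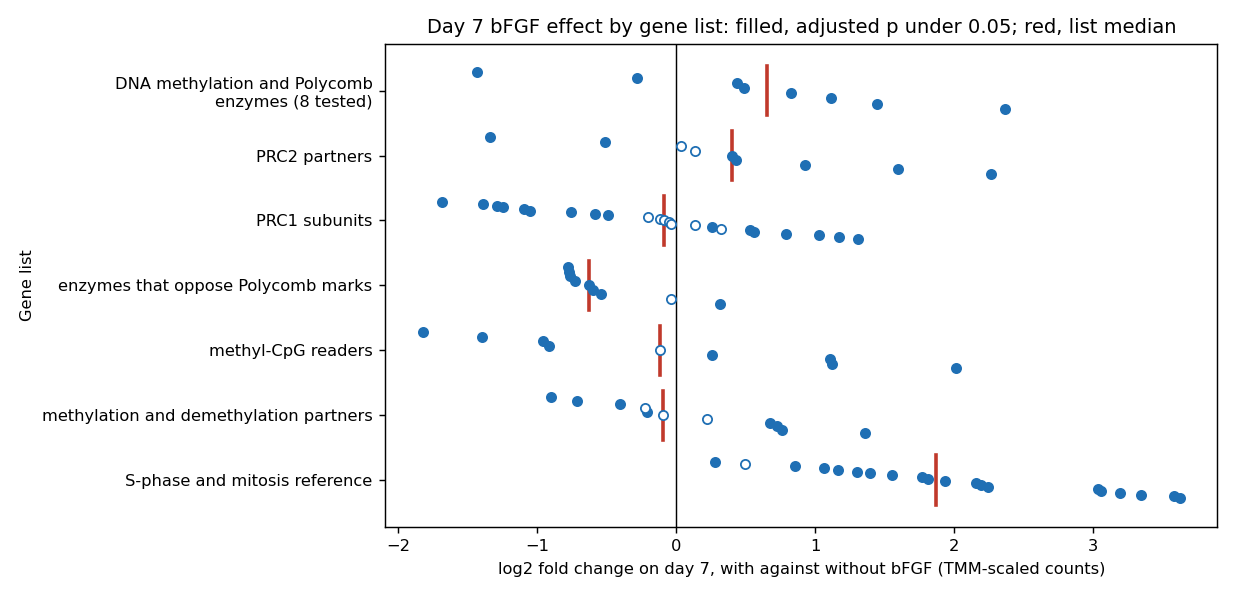
Log2 fold change on day 7 with against without bFGF (x axis, TMM-scaled counts) for each tested gene of 7 lists (y axis), filled where the adjusted p was under 0.05, with the list median in red. The S-phase and mitosis reference has a median of 1.87, the members 0.65 and the list labelled as enzymes that oppose Polycomb marks, not all of them enzymes, -0.63.

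Of 39 genes known to be held by Polycomb, 13 reached 1 FPKM in a library and 10 were tested, of which 5 rose and 3 fell (3 and 4 in unscaled FPKM). Cdkn2a, a cell-cycle inhibitor that Polycomb holds in many cells, was at 153.9 FPKM on day 0 and on day 7 at 170.8 and 187.0 (BM, C) and 301.8 and 337.8 (B, BC). Of 15 germline genes that promoter methylation keeps silent, 2 reached 1 FPKM in a library. The 15 summed to 0.7 FPKM on day 0, 2.44 to 5.96 without bFGF and 1.43 to 4.58 with it. The 1 germline gene tested did not pass for the mean effect (-0.05). Its call there changed with the scaling (-0.22 and lower in unscaled FPKM, 0.26 and higher after quantile normalization). On day 7 the gene was called higher with bFGF (0.30), but it was at -0.16 and not called in unscaled FPKM. After quantile normalization it was at 0.72 and called higher on day 7. It was also called higher with CHIR99021 (0.25).

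As a description over the 17 libraries, which share day and treatment, the log2(FPKM + 1) of Uhrf1 correlated with that of Ezh2 (r = 0.93) and Suz12 (r = 0.93), Dnmt3a with Tet3 (r = 0.85), and Dnmt1 inversely with Ezh1 (r = -0.97). Among 11258 genes, the 3 most like Uhrf1 were Espl1, Dtl and Nuf2 (r = 0.99 each). Those most like Suz12 were Clspn, Mcm10 and Lrrc40, those most like Ezh2 were Nap1l1, Cct7 and Rfc4, and those most like Dnmt1 were Cdk2ap1, Psmb2 and Hn1l. Dnmt3a was most like Arhgef17, Ttc17 and Mrgpre, Ezh1 was most like Ip6k1, Tbc1d22a and Tubg2, Tet3 was most like Tmem101, Rnf185 and Myo10, and Tet2 was most like Prpf40b, Fam46a and Dlg4.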

How the data were processed

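The authors sequenced 17 libraries on the BGISEQ-500, aligned the reads with Bowtie2 and estimated expression per gene, with eXpress by the paper and RSEM on mm10 by the submitters' processing notes. They deposited an expected count per gene, which need not be whole, and an FPKM value per gene, scaled by length and library total and listed from 0.01. A gene not listed was read as 0. Treatment and day came from the sample titles.

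Expected counts were rounded and fitted with edgeR 4.0.16 in R 4.3.3 (TMM, glmQLFit, glmQLFTest) over the 16 cultured libraries, with 8 means of day and bFGF and an additive CHIR99021 term, for the 11272 genes whose FPKM averaged 1 or more. The p-values were adjusted over all of these (threshold 0.05). Alternatives were DESeq2 1.42.0, limma 3.58.1 on log2(FPKM + 1) and with a pseudocount of 0.1, quantile normalization, other filters and terms, and leaving out each library or day 1. Libraries had totals of 17571973 to 19428744 counts, and Dnmt3b and Tet1 fell below the filter. Promoters are RefSeq windows on GRCm38.p6. Python 3.11.15, numpy 2.4.6, pandas 2.3.3 and matplotlib 3.10.9 handled tables and plots.

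The members and gene lists were chosen with earlier results of these data known. All members were named, and of each other list up to 3 rises and 3 falls with the largest mean bFGF effect, past the threshold and in the same direction in all 8 pairs. Not every gene chosen this way is reported here.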

Additional observations from a re-analysis of the deposited data

Results flagged for a closer look

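The bFGF effect differed between the days in 7 members by edgeR's F test, with adjusted p-values of 5.84e-06 for Uhrf1, 7.78e-05 for Dnmt3a, 0.00134 for Ezh2, 0.00292 for Ezh1, 0.00361 for Suz12, 0.0043 for Tet2 and 0.0292 for Tet3. The same test passed in 76.3% of all genes. In unscaled FPKM with limma 4 members passed, without Ezh1 (adjusted p = 0.249), Suz12 (adjusted p = 0.17) and Tet2 (adjusted p = 0.126), and after quantile normalization Tet3 did not (adjusted p = 0.0504).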

How the results depend on the processing

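No paired analysis was possible because each treatment and day has 1 library and the labels give no replicate numbers shared between groups for a replicate block. The pairs of libraries in the report share a day and the presence or absence of CHIR99021 and are not numbered replicates. For single members, 506 of 569 values under other settings and 1059 of 1120 with 1 library left out kept their direction and side of the threshold. The cause of the changes was not tested.

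In unscaled FPKM with limma (pseudocounts of 1 and 0.1), the bFGF effect reversed for Dnmt1 (mean -0.0266 and -0.0272, day 5 -0.141 and -0.146, day 7 -0.0981 and -0.101), Ezh1 (mean -0.156 and -0.166, day 7 -0.0538 and -0.0564) and Tet3 on day 5 (-0.361 and -0.406), as did Suz12 from day 3 to day 7 with bFGF (-0.115 and -0.119). Tet3 also reversed for the mean after quantile normalization (0.0181) and on day 5 with a minimum FPKM of 5 (-0.0813). With both pseudocounts, 3 members were lower for the mean in place of 1, 3 higher and 2 lower on day 5 in place of 6 and 1, 4 differed between days in place of 7, 2 were higher in day 7 against day 1 in place of 5, and 2 higher and 2 lower from day 3 to day 7 with bFGF in place of 5 and 1. After quantile normalization, 1 member was lower on day 3 and 1 on day 7 in place of 2, 0 on day 5 in place of 1, 1 in day 7 against day 1 in place of 2, and 2 from day 3 to day 7 with bFGF in place of 1.

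With no filter, 3 members were lower for the mean in place of 1, 1 on day 3 and 1 in day 7 against day 1 in place of 2, 1 was higher from day 3 to day 7 without bFGF in place of 2, and 2 were lower with bFGF in place of 1. That fit includes Tet1 (mean -0.70, adjusted p = 0.00512) and Dnmt3b (mean -0.71, adjusted p = 0.0489), at few counts. With a minimum FPKM of 5, 2 were lower for the mean, and 3 higher and 2 lower from day 3 to day 7 with bFGF. Without day 1, 2 were lower for the mean. With no CHIR99021 term, 359 genes passed on day 1 in place of 1203, 956 from day 3 to day 7 without bFGF in place of 2074, and 1 member was higher there. In an additive model 38 genes passed for CHIR99021 in place of 2199. For the CHIR99021 effect with against without bFGF, 78 genes passed, but 224 with no filter, 45 with a minimum of 5, 244 in DESeq2, and in limma 1 and 0 with the pseudocounts and 1 after quantile normalization.

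With 1 library left out, the lone sample left is assumed to vary like the other groups. Genes past the threshold then ran from 2 to 632 for that last contrast, 145 to 1778 for day 1, and 680 to 2589 from day 3 to day 7 without bFGF. Members lower ran from 1 to 2 for the mean, 0 to 2 on day 3, 1 to 2 on day 7, 1 to 2 for day 7 against day 1, and 1 to 2 from day 3 to day 7 with bFGF. Members higher ran from 1 to 2 from day 3 to day 7 without bFGF and 0 to 1 for CHIR99021, and Tet3 on day 5 from -0.062 to 0.115.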
